A study of Homo sapiens with 2 samples.

Results

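The genes described here encode the adhesion receptors and the matrix proteins they hold: the integrin subunits, the laminin chains and the collagen chains. They were taken by name from the deposited table, as rows that name a single gene, and 37 of 12628 such genes are described: 14 integrins, 7 laminins and 16 collagens. The cells are A549, a long-established line from a human lung adenocarcinoma, grown with serum and read by RNA-seq. One library was labelled wild type and the other MYOCD knockdown, MYOCD being the gene for myocardin, a muscle coactivator of serum response factor. Both samples carry a label of doxycycline for 72 h, but the wild type is described as without treatment in the design text; if so, knockdown and doxycycline cannot be told apart. The knockdown sample is titled MYOCD-/- although its genotype label says knockdown, and the method of knockdown is not stated. With a single library on each side there is no replicate error and nothing was tested, and counts past a fold describe these libraries alone. In such bulk samples fewer cells of a type and less RNA per cell cannot be told apart. Levels are in RPKM (reads scaled for transcript length and for the library's mapped reads), wild type before knockdown.

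Integrins are pairs of 1 alpha and 1 beta subunit that span the membrane, bind matrix outside the cell and join the actin cytoskeleton inside it. Laminins are trimers of an alpha, a beta and a gamma chain that form, with network-forming collagen IV, the basement membrane under epithelial sheets. Collagens are triple helices, and their chains assemble in fixed combinations, so the balance between the chains of a trimer limits what can be made. Lung epithelium rests on such a basement membrane and holds it mainly through the integrins that bind laminin.

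The label of the cells matched the epithelial markers. Of 5 epithelial markers all were in the table, led by the keratins KRT8 (1545 and 1521 RPKM) and KRT18 (1776 and 1683 RPKM). The other epithelial markers were lower: CDH1 (23.8 and 22.5 RPKM), KRT19 (7.7 and 7.69 RPKM) and EPCAM (2.24 and 2.15 RPKM). Of 6 fibroblast markers 1 had a single-name row (THY1, 1.56 and 1.5 RPKM), and none of the 4 endothelial or the 4 leukocyte markers did. Rows with several names or no name were not searched for markers. The targeted gene, MYOCD, had 0.881 and 0.4 RPKM, close to the lowest values the table holds, and its partner SRF had 9.23 and 8.82 RPKM. The median difference over the 11859 single-name genes averaging 1 RPKM or more was 0.01, on the scale log2((knockdown RPKM + 1) / (wild type RPKM + 1)), which is used for every difference below and understates those of low genes. Rescaling both libraries to the same summed RPKM over all rows shifts that median by -0.18, and of the members it turns the sign of COL18A1, COL27A1, COL4A2, ITGB1, ITGB7, LAMA3, LAMB1 and LAMC1.

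Most of these genes had nearly the same level in both libraries. Of the 33 described genes averaging 1 RPKM or more, 0 were 1.5-fold or more higher in the knockdown library, and 1, ITGA2B, was 1.5-fold or more lower. Over all 11859 genes, 1.64% were that much higher and 3.25% that much lower, and over the 11039 that are protein-coding 0.96% and 2.79%. Counts of 0 and 1 in 33 are near these background shares. The median difference of the 33 was 0.09, and the quartiles were -0.12 and 0.19. Above 0 were 18 (54.5%), as were 52.3% of protein-coding genes. With equal sums over all rows 11 of the 33 were above 0, but the median of all genes also fell, to -0.17. In both settings 18 of the 33 were above the median of all genes. Of the families, the collagens lay highest with a median of 0.15 and the integrins lowest with -0.10.

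**Figure D1:**
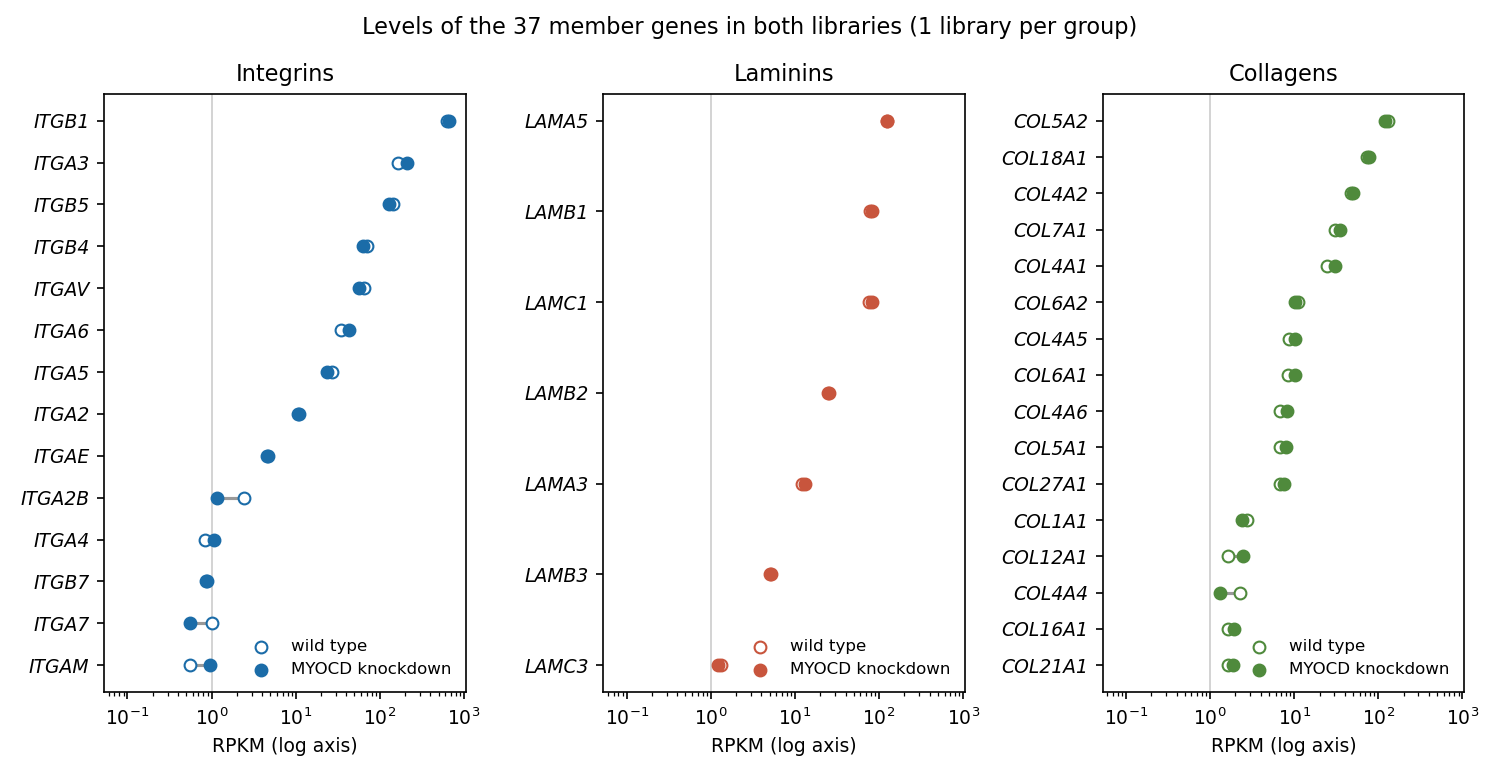
RPKM (log axis) of each described gene in the wild type library (open circles) and the knockdown library (filled circles), 1 library each, ordered by mean level within integrins, laminins and collagens; the grey line marks 1 RPKM. The paired circles touch for most genes from ITGB1 at 632 and 673 RPKM downwards, and those furthest apart are low genes in both directions: ITGA2B (2.42 and 1.15 RPKM), ITGA7 (1.00 and 0.553 RPKM), COL4A4 (2.26 and 1.31 RPKM) and ITGAM (0.561 and 0.962 RPKM).

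**Figure D2:**
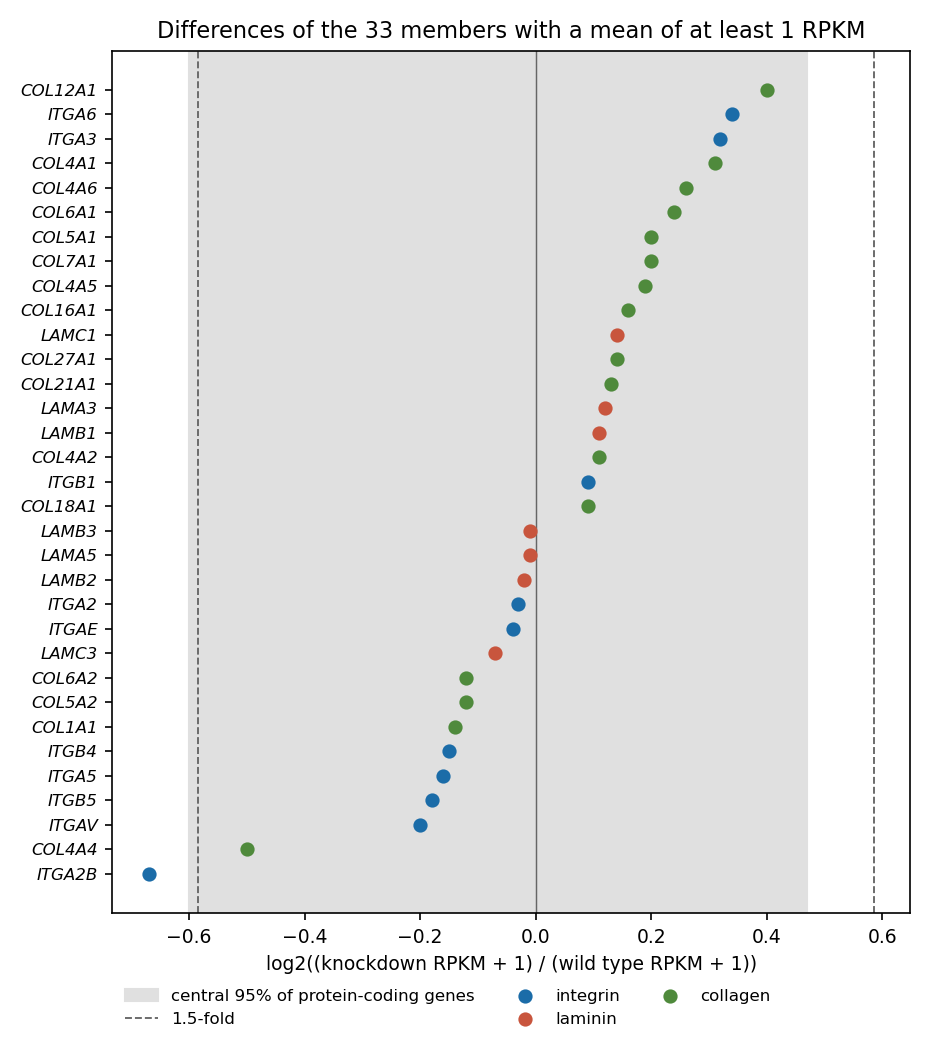
Difference between the libraries on the log2(RPKM + 1) scale for the 33 described genes averaging 1 RPKM or more, coloured by family; dashed lines mark 1.5-fold and grey shading the central 95% of protein-coding genes, from -0.60 to 0.47. ITGA2B at -0.67 lies outside the shading, and the other 32 lie inside.

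The laminin chains described here were level between the libraries. LAMA5, the main alpha chain of adult epithelia, had 124 RPKM in both, LAMB1 had 77.0 and 83.4 RPKM, and LAMC1, the gamma chain of most laminins, had 75.4 and 83.1 RPKM. LAMB1 and LAMC1 stood at almost equal levels, with a ratio of LAMC1 to LAMB1 of 0.979 and 0.997. LAMA5 held 91.2% and 90.4% of the summed alpha RPKM, and LAMB1 held 71.7% and 73.5% of the beta. One chain thus made up most of each of these classes in both libraries. LAMA5 overlaps ADRM1 and LAMB1 overlaps DLD on the other strand, both hold a short RNA gene, and LAMB3 holds MIR4260, so these levels, shares and ratios may include reads of those genes, which was not tested. LAMA3, an alpha chain of epithelial laminins, had 12.1 and 13.2 RPKM, and the beta chains LAMB2 and LAMB3 had 25.3 and 24.9 RPKM and 5.13 and 5.09 RPKM. LAMB3 stood at 0.426 and 0.387 times LAMA3, with which it assembles. LAMC3, a minor gamma chain, had 1.33 and 1.21 RPKM, and LAMA1, LAMA2, LAMA4 and LAMB4 were not among the values used here. Of the 7 laminins described, 3 were above 0 (0 with equal sums, when LAMA3, LAMB1 and LAMC1 turned), and the median difference was -0.01. In both settings 3 of the 7 were above the median of all genes.

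**Figure D3:**
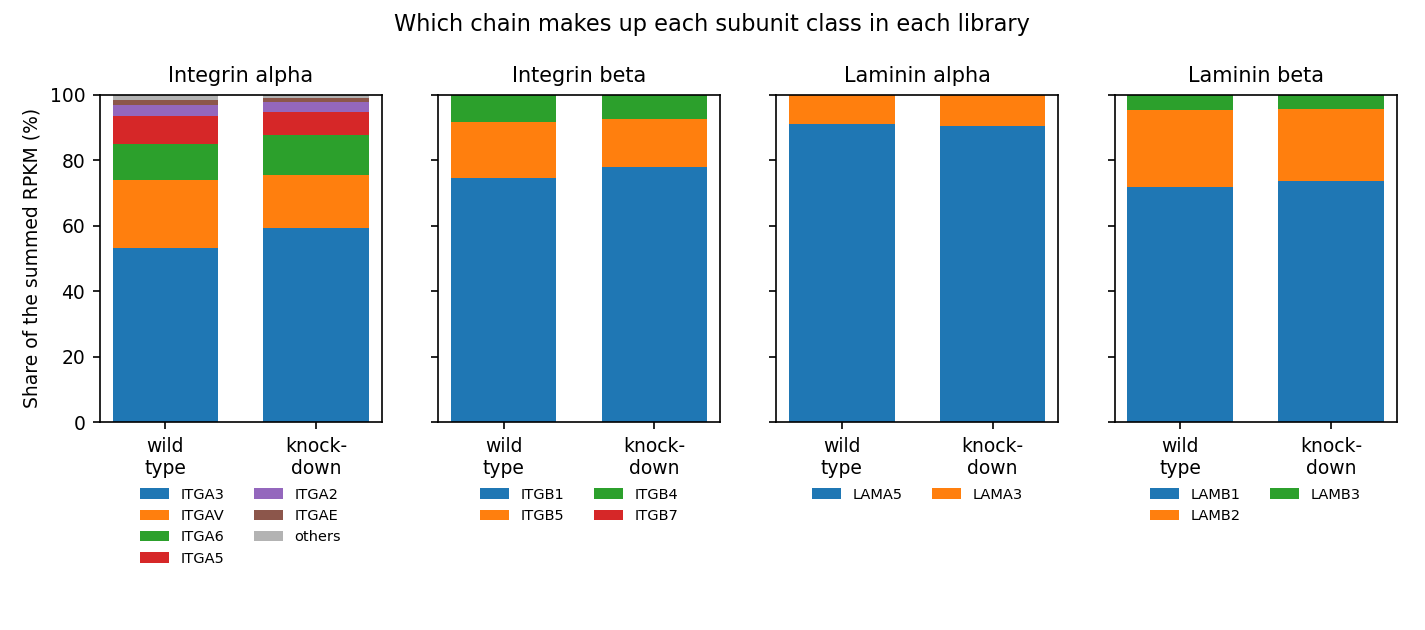
Share of the summed RPKM (%) held by each chain within integrin alpha, integrin beta, laminin alpha and laminin beta, in the wild type and the knockdown library (1 library each). ITGA3, ITGB1, LAMA5 and LAMB1 are the largest blocks in both libraries, and ITGA3 and ITGA6 together go from 64.2% to 71.8% of the alpha integrins.

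Among the integrin alpha subunits, ITGA3 and ITGA6, which bind laminin, were higher in the knockdown library, and the 3 that bind the RGD motif of fibronectin and vitronectin were lower, each by less than 1.5-fold apart from ITGA2B. ITGA3, the alpha subunit of the main laminin receptor of lung epithelium, had 166 and 208 RPKM, a difference of 0.32. ITGA6, which pairs with ITGB1 or with ITGB4 of the hemidesmosome, had 34.2 and 43.5 RPKM, a difference of 0.34. Both stayed above 0 with equal sums (0.13 and 0.15). As far above 0 were 7.07% and 6.25% of protein-coding genes, so each value is common among single genes. The third laminin-binding subunit, ITGA7 of muscle, went the other way at a low level, with 1.00 and 0.553 RPKM and a difference of -0.37, and runs opposite to 3 protein-coding genes, METTL7B, BLOC1S1 and the readthrough BLOC1S1-RDH5.

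ITGAV, the alpha subunit of the vitronectin receptors, had 64.3 and 55.9 RPKM, a difference of -0.20, and its beta partner ITGB5 had 145 and 128 RPKM, a difference of -0.18. The ratio of ITGAV to ITGB5 was 0.443 and 0.437. ITGA5, the alpha subunit of the fibronectin receptor, had 26.7 and 23.8 RPKM, a difference of -0.16. Of protein-coding genes, 18.8% were as far below 0 as ITGAV and 22.6% as far as ITGA5, so each value is common among single genes. Summed, ITGA3 and ITGA6 stood at 2.2 times ITGAV and ITGA5 in the wild type library and at 3.16 times in the knockdown library. Their share of all integrin alpha RPKM was 64.2% and 71.8%, and that of ITGAV and ITGA5 was 29.2% and 22.7%. These ratios are within a library and do not move with its scaling, and with 1 library per group their spread between cultures is unknown. ITGA6, ITGAV, ITGA5 and ITGB5 have noncoding genes on the other strand. Whether reads of those genes add to the values was not tested.

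ITGA2B had the largest difference below 0 of the members. It encodes the alpha subunit of the platelet fibrinogen receptor, whose beta partner ITGB3 was not among the values used here. Its level was 2.42 RPKM in the wild type library and 1.15 RPKM in the knockdown library, 47.3% of the former, and its log2 difference was -0.67. Such values are more frequent at this level: of 786 protein-coding genes averaging 1 to 2 RPKM, 52 (6.62%) were at least 1.5-fold lower. It lies on the minus strand of chromosome 17 from 44372180 to 44389505 with no gene annotated on the other strand and no short RNA gene inside. The next coding gene on 1 side, FAM171A2 (8.3 kb away), was also lower, with 9.56 and 5.38 RPKM, while GPATCH8 on the other side (5.8 kb away) had 12.7 and 12.9 RPKM. The 250 bases before the RefSeq start of ITGA2B (GRCh38.p14, minus strand, chr17:44389650-44389899) are shown because this member had the lowest difference. Capitals mark matches to the motifs listed further on, and the single match is to CCAAT.

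ITGA2B: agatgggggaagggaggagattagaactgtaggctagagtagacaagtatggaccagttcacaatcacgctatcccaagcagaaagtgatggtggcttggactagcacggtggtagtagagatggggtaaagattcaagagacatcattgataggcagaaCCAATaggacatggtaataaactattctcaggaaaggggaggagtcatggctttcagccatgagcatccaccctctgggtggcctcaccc

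The beta subunits were dominated by ITGB1, the partner of most alpha subunits, which had 632 and 673 RPKM. It ranked 114 and 108 among 11654 protein-coding genes and held 74.5% and 77.8% of the beta sum. Its difference was 0.09, and -0.11 with equal sums. ITGB4, the hemidesmosomal subunit, had 69.9 and 62.9 RPKM, a difference of -0.15, opposite in sign to that of its partner ITGA6. ITGA6 therefore stood at 0.489 times ITGB4 in the wild type library and at 0.691 times in the knockdown library. GALK1 overlaps ITGB4 on the other strand, and since use of strand is not stated their reads cannot be told apart.

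The remaining integrins were low or level. ITGA2, the collagen receptor subunit of epithelia and platelets, had 11 and 10.8 RPKM. The other collagen-binding subunit with a value, ITGA1, shared its row with PELO, a ribosome rescue factor encoded within it, and the row had 16.4 and 19.3 RPKM. ITGAE, which binds E-cadherin, had 4.73 and 4.57 RPKM and overlaps HASPIN on the other strand, while its only partner, ITGB7, was near the floor at 0.858 and 0.873 RPKM and overlaps ZNF740 on the other strand. ITGA4 (0.847 and 1.07 RPKM) and the leukocyte subunit ITGAM (0.561 and 0.962 RPKM) had means under 1 RPKM, as did ITGA7 and ITGB7, and were left out of the counts. ITGB2, ITGB3, ITGB6, ITGB8, ITGA8, ITGA9, ITGA10, ITGA11, ITGAD, ITGAL and ITGAX were not among the values used here. Of the 10 integrins counted, 3 were above 0 (2 with equal sums, when ITGB1 turned). In both settings 3 of the 10 were above the median of all genes.

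The collagens split into a few abundant chains and many low ones. COL5A2, COL18A1, COL4A2, COL7A1 and COL4A1 held 83.9% and 83.0% of the summed collagen RPKM. Of the 16 collagens, 12 were above 0 and 4 below (9 and 7 with equal sums, when COL18A1, COL27A1 and COL4A2 turned). Over protein-coding genes 52.3% were above 0 as deposited. Equal sums lower the median of all genes too, and in both settings 12 of the 16 collagens were above that median. None reached 1.5-fold as deposited on the log2(RPKM + 1) scale. The 28 other collagen genes looked for, among them COL1A2, COL3A1, COL4A3, COL6A3 and COL17A1, were not among the values used here.

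Basement membrane collagen IV had 5 of its 6 chains in the table. COL4A1 and COL4A2, the chains of the common trimer, which holds a pair of the first chain and 1 of the second, had 24.4 and 30.6 RPKM and 46.9 and 50.7 RPKM. The COL4A1 message was thus the lower of the pair, at 0.521 and 0.604 times COL4A2. COL4A5 had 8.70 and 10.1 RPKM and COL4A6 had 6.70 and 8.20 RPKM, a trimer pair found in the basement membrane of epithelia such as bronchus. These 4 chains had differences of 0.31, 0.11, 0.19 and 0.26 in that order, and with equal sums COL4A2 turned to -0.08 while the others were 0.12, 0.01 and 0.08. COL4A4, which normally assembles with COL4A3 and COL4A5, went the other way, with 2.26 and 1.31 RPKM and a difference of -0.50. With equal sums it reached -0.61, past 1.5-fold, and 4.21% of protein-coding genes were as far below 0 as deposited. Such values are more frequent at its level. Of protein-coding genes averaging 1 to 2 RPKM, 6.62% were at least 1.5-fold lower, a larger fall than that of COL4A4 as deposited.

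These 4 collagen IV genes lie head to head in pairs, so that the partners start from opposite strands of the same stretch. The RefSeq starts of COL4A1 (minus strand, chromosome 13, 110307157) and COL4A2 (plus strand, 110307284) leave 126 bases between them. The nearer start of COL4A6 (minus strand, chromosome X, 108439458) and that of COL4A5 (plus strand, 108439838) leave 379. COL4A6 has a second RefSeq start at 108438422, farther from COL4A5, whose window holds GGGCGG and no CCAAT. Which start these cells use was not tested. In GENCODE the COL4A1 and COL4A2 loci also overlap at their starts on opposite strands, so reads there cannot be told apart. The sequences are shown because the partners share them and had differences of the same sign as deposited. Each is written 5′ to 3′ on the strand of the gene named first, from GRCh38.p14, and capitals mark matches to the motifs listed in the next paragraph on either strand. The first is the whole stretch between the starts (chr13:110307158-110307283), with 80.2% G and C. The next are the 250 bases before the nearer COL4A6 start and the COL4A5 start (chrX:108439459-108439708 and chrX:108439588-108439837). They overlap on opposite strands and have 44.0% and 51.2% G and C.

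COL4A1 and COL4A2: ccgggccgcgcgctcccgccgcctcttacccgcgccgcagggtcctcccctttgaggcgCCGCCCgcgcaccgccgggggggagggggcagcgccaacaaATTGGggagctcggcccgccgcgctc
COL4A6: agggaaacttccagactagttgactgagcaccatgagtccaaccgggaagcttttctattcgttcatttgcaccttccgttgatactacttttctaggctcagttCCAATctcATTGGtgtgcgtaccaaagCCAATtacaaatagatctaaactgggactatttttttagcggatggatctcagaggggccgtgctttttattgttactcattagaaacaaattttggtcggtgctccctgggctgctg
COL4A5: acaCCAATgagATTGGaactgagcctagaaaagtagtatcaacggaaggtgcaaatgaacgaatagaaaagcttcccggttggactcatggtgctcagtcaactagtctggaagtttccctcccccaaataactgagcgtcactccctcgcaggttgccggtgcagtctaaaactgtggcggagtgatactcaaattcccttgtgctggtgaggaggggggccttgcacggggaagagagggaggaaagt

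The shared COL4A1 and COL4A2 stretch holds 1 match to GGGCGG and 1 to CCAAT. The COL4A6 and COL4A5 stretches hold 3 and 2 matches to CCAAT, and the 2 are sites also counted among the 3. RefSeq promoter windows, from 250 bases before to 50 after a start, were found for 30 of the 37 genes, 42 windows in all, since a gene can have several that overlap. All motifs were read on both strands. GGGCGG was in 71.4% of the members' windows and in 45.0% of 35116 windows of all genes, measured here or not. CCAAT was in 16.7% and 34.6%. The members' windows had a median of 62.8% G and C and all windows 58.7%, and whether this bears on the shares was not tested. TATAAA was in 11.9% and 11.5%, and TGANTCA, the AP-1 word, in 7.14% and 7.71%. The CArG box, the word that serum response factor and with it myocardin bind, was in 0 of the 42 windows and in 1.29% of all windows. ITGA3, ITGA7, ITGB4, LAMC3, COL1A1, COL5A2 and COL6A1 had no window in the table.

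COL5A2 was the most abundant collagen, with 129 and 119 RPKM, 35.6% and 31.5% of the collagen sum. It encodes the second chain of collagen V, which regulates the width of collagen fibrils, and its trimer needs more of COL5A1 than of COL5A2. COL5A1 had only 6.84 and 8 RPKM, so COL5A2 stood at 18.9 and 14.9 times its partner. The COL5A2 locus holds the microRNA gene MIR3129 on its own strand, and whether reads from it add to the value was not tested. The other fibrillar chains were low: COL27A1 had 6.81 and 7.62 RPKM, and COL1A1, the main chain of bone and tendon collagen, had 2.76 and 2.41 RPKM without its partner COL1A2.

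The remaining collagens belong to other structural classes. COL18A1, a basement membrane collagen whose tail is released as endostatin, had 73.1 and 77.7 RPKM (-0.11 with equal sums, 0.09 as deposited), and it overlaps SLC19A1 on the other strand and holds MIR6815. Short RNA genes also lie inside COL4A2, COL7A1 and COL27A1. COL7A1, which forms the anchoring fibrils that fasten basement membrane to stroma, had 30.7 and 35.4 RPKM. Of the microfibrillar chains, COL6A1 had 8.39 and 10.1 RPKM and COL6A2 had 11.1 and 10.2 RPKM, so their ratio went from 0.754 to 0.990 although both lie on chromosome 21 on the same strand. The fibril-associated collagens were the lowest class: COL12A1 had 1.63 and 2.45 RPKM, a ratio of 1.51 and a difference of 0.40, COL16A1 had 1.62 and 1.93 RPKM, and COL21A1 had 1.63 and 1.87 RPKM. COL12A1 had the highest difference of the 33 genes, inside the central range of protein-coding genes.

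**Figure D4:**
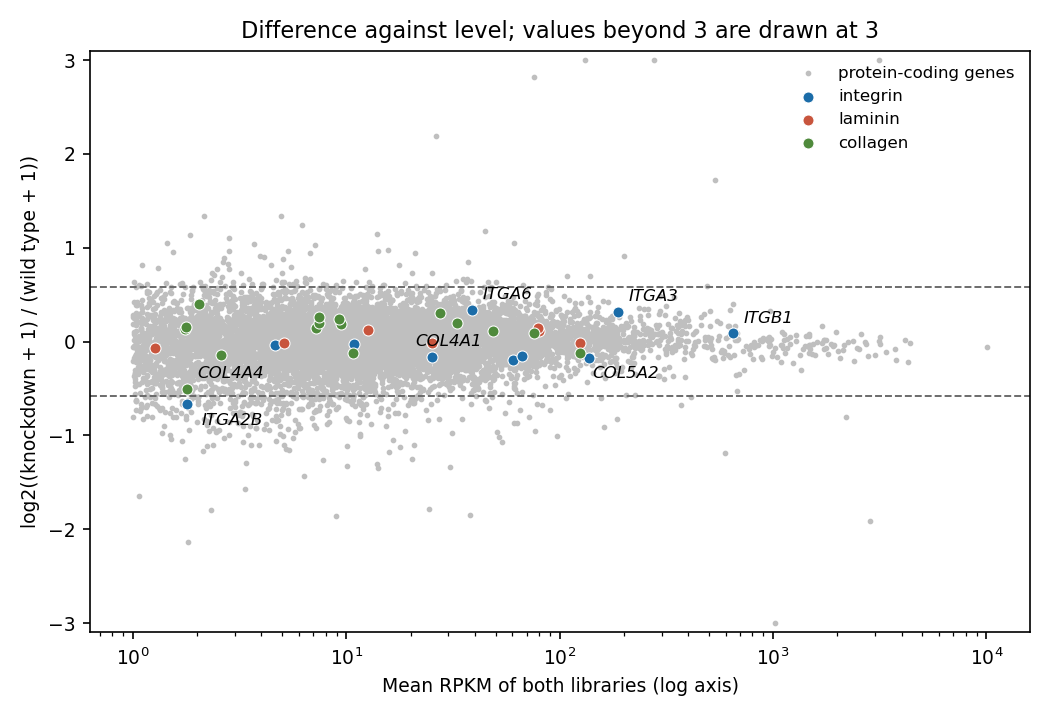
Difference between the libraries on the log2(RPKM + 1) scale against the mean RPKM of both (log axis), with protein-coding genes averaging 1 RPKM or more in grey and the members in colour; dashed lines mark 1.5-fold. ITGA2B at -0.67 lies below the lower line, and the other 32 coloured points sit between the lines.

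Genes that make, modify, bind or cleave these proteins were also mostly level. Of 26 genes of collagen synthesis and crosslinking, 20 were measured, with a median difference of 0.09. Past 1.5-fold were 0 upwards and 1 downwards, beside 1.64% and 3.25% of all genes. That gene was PCOLCE, which enhances the removal of procollagen tails, with 6.94 and 3.67 RPKM; with a pseudocount of 5 it was under 1.5-fold (-0.46). Prolyl hydroxylases went both ways, with P4HA1 at 36.7 and 28 RPKM and P4HA3 at 1.88 and 3.1 RPKM, which passed 1.5-fold (0.69) with a pseudocount of 0.1. LEPREL2 (now P3H3), another prolyl hydroxylase, had 9.89 and 7.39 RPKM. PLOD2, a lysyl hydroxylase, had 93.2 and 128 RPKM, and the collagen chaperone SERPINH1 had 49.9 and 65.8 RPKM.

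Of 21 other matrix ligands, 15 were counted, with a median of 0.07 and none past 1.5-fold in either direction. The lowest were FN1, fibronectin, with 71.2 and 51.2 RPKM, and FBLN1, a fibulin, with 47.8 and 37.9 RPKM, and the highest were THBS1, thrombospondin, with 6.70 and 10.3 RPKM, and SPP1, osteopontin, with 75.9 and 104 RPKM. FN1 passed 1.5-fold (-0.66) with equal sums, and THBS1 (0.61) with a pseudocount of 0.1. Of 11 other laminin and collagen receptors, 7 were counted, with a median of 0.11 and none past 1.5-fold. BCAM, a laminin receptor that binds LAMA5, had 77.4 and 61.5 RPKM, DDR1, a collagen receptor kinase, had 27.9 RPKM in both libraries, and CD44 and the syndecan SDC4 had 96.4 and 120 RPKM and 46.2 and 61.5 RPKM.

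Among 29 partners of integrins at the membrane, 25 were counted, with a median of 0.06. Past 1.5-fold were 1 upwards and 1 downwards, beside 1.64% and 3.25% of all genes. Both were kindlins, which switch integrins on. FERMT2 (kindlin-2), the widely expressed kindlin, had 22.1 and 12.7 RPKM, a difference of -0.76. FERMT1 (kindlin-1), the kindlin of epithelia, had 6.18 and 9.88 RPKM, a difference of 0.60, which was under 1.5-fold with equal sums (0.42) and with a pseudocount of 5 (0.41). LIMS1, of the complex that links integrins to actin, had 22.2 and 17.1 RPKM, and its partner PARVA had 5.76 and 9.06 RPKM and passed 1.5-fold (0.65) with a pseudocount of 0.1. The core adaptors talin (TLN1, 51.4 and 49.7 RPKM), vinculin (VCL, 81.1 and 76.4 RPKM) and ILK (47.6 and 48.2 RPKM, turning from 0.02 to -0.18 with equal sums) differed little as deposited. Of 17 proteases and inhibitors, 9 were counted, with a median of -0.10 and none past 1.5-fold, though MMP14 passed it with equal sums (-0.66) and with a pseudocount of 0.1 (-0.82). MMP14, a membrane collagenase, had 2.37 and 1.30 RPKM and MMP15 had 21.2 and 16.1 RPKM, while MMP7 had 34.6 and 50.4 RPKM and MMP24 had 21.9 and 27.4 RPKM.

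**Figure D5:**
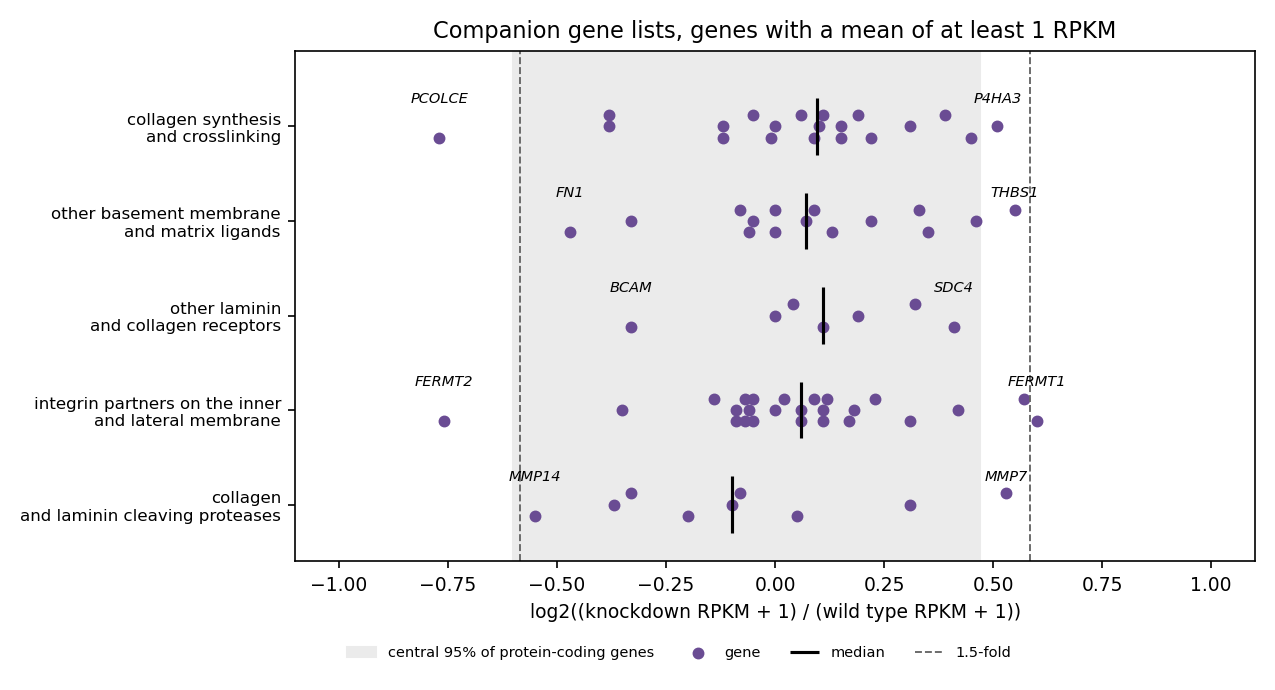
Difference between the libraries on the log2(RPKM + 1) scale for the measured genes of 5 companion lists (points, 1 RPKM or more on average), with each list's median (black bar), the 1.5-fold lines (dashed) and the central 95% of protein-coding genes (grey). Medians lie between -0.10 and 0.11, and PCOLCE, FERMT2 and FERMT1 are the genes past 1.5-fold.

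The 7-base word AATATGC was also looked for in the longest annotated 3′ UTR of each member, because an earlier search of these same libraries had picked it among their lower genes. It was in 5 of the 33 described genes counted (15.2%) and in 1267 of 10171 measured genes with an annotated 3′ UTR (12.5%). Of the 5, COL4A4 and ITGAV were lower in the knockdown library, while COL4A1, LAMA3 and ITGB1 were higher as deposited, and LAMA3 and ITGB1 turned with equal sums. ITGA2B does not hold it. The sites of 3 members with differences of both signs are shown with 10 bases on each side, the word in capitals, from GENCODE release 29 transcripts. They begin at base 266, 3069 and 933 of the 3′ UTR.

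COL4A4: tttacttaaaAATATGCtaattctcag
ITGAV: gaacgatagaAATATGCagcatgcaat
COL4A1: tattttaaaaAATATGCctgataggtg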

How the data were processed

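RNA from 1 wild type and 1 MYOCD knockdown A549 culture was read as 2 libraries. The deposited values are RPKM computed by the authors. Per the submitters' processing notes, the builds BDGP5 and GRCh38.p12 and the tools Cufflinks 2.2.1 and TopHat2 2.0.10 appear with no stated role. The sources used here do not give annotation, filters or use of strand. With no counts the depth is unknown and no interval could be set. In every row the higher value is at least 0.652 RPKM, so genes low in both libraries are absent. Of 14952 rows, 1909 with no name and 308 with several names were left out, and repeated names were summed. Differences are log2((knockdown + 1) / (wild type + 1)), counted past 1.5-fold for genes averaging 1 RPKM or more. No test was made, as each group is 1 library. The members, the companion lists and the size rule were chosen with earlier results of these data known. Every described gene is named; 1 gene that the naming rule takes is not reported here and is in no count, median, share or figure of the family, so those hold for the described genes only. From each companion list the genes past 1.5-fold and the 2 highest and 2 lowest are named; LEPREL2, SERPINH1, TLN1, VCL and ILK were named after their values were seen. Gene types and promoter windows came from RefSeq tables on GRCh38.p14, and positions and UTRs from GENCODE release 29. The promoter motifs and the UTR word were added after the values were seen. Python 3.11.15, numpy 2.4.6 and pandas 2.3.3 were used, and the script was tested on simulated data.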

Additional observations from a re-analysis of the deposited data

How the results depend on the processing

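The count of described genes at least 1.5-fold higher was 0 in each setting tried, including a 2-fold rule. Every setting adds a pseudocount, which shrinks the differences of low genes. As a plain ratio of knockdown to wild type, COL12A1 stood at 1.51, past 1.5-fold. COL4A4 (0.58) and ITGA2B (0.473) were past it downwards, and ITGA2B was past 2-fold. The count at least 1.5-fold lower rests on low genes: it was 2 with a pseudocount of 0.1 or with equal summed RPKM over all rows (COL4A4 added), and 0 with a pseudocount of 5, a mean of at least 5 RPKM or a 2-fold rule. Their median was 0.09 as deposited and -0.11 with equal sums over all rows, which moved the median of all genes by -0.18; rows with no name held 42.3% of the wild type and 49.5% of the knockdown sum. Equal sums over single-name rows, median centring, no filter, and rows with several names left the counts at 0 higher and 1 lower. A setting chosen after seeing the data kept the 22 genes with no same-strand short RNA gene inside and no coding gene opposite. Noncoding genes on the other strand, as at LAMC3 and COL4A5, were allowed. The median of the 22 was 0.10 and the counts were again 0 and 1. Of 185 values of single genes under the 5 alternatives that can move them, 180 kept their side of 1.5-fold; the filters on low values leave a gene's own difference as it is. No replicate could be left out, and depth is unknown. No paired analysis was possible because each group has 1 library.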
